A study of Mus musculus with 4 samples.

Results

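The comparison described here is knockout against wild-type liver on a normal diet, read as the array of the catalase knockout minus the array of the wild type. These are 2 of the 4 arrays of the study, picked out by their titles, and the differences are described across all genes named on the array. The study crossed genotype with diet in male mice and measured total liver RNA on 1-colour Agilent mouse arrays. The wild-type and the catalase knockout mice of this comparison ate a normal diet, with 18% of calories from fat, for 11 weeks, from 29 to 40 weeks of age. The other pair of arrays holds both genotypes on a high-fat diet with 60.3% of calories from fat over the same weeks. All mice had free access to water and a day of alternating light and dark. Each group is 1 array, and the labels do not say whether it holds 1 animal or a pool, nor the strain, the kind of knockout allele or the time of day or feeding state at which livers were taken. No value below therefore has a replicate, no test was possible and no p-value is given.

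Catalase, encoded by Cat, is the haem enzyme that turns hydrogen peroxide into water and oxygen. In liver it sits mostly in peroxisomes, where oxidases of fatty acids, urate, D-amino acids and hydroxy acids make hydrogen peroxide as a by-product. Hepatocytes also hold glutathione peroxidases and peroxiredoxins that remove peroxide elsewhere in the cell, and mice without catalase are viable. Hydrogen peroxide is also a signal that can alter phosphatases, kinases and transcription factors. The liver carries out lipid storage and oxidation, drug metabolism and the secretion of plasma proteins and hormones. Many of its genes follow the pulses of growth hormone, feeding and the time of day.

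Of 39429 probes, between 60.3% and 63.9% were well above background by the scanner's flag on the 4 arrays, and 0 spots were saturated. The processed signal had its 75th percentile at 1006 on the wild-type and 1002 on the knockout array of the normal diet, and all levels below are scaled signals in which that percentile of each array is 1000. A scaled signal is comparable between arrays for one probe, and not between genes. Differences are log2 of the knockout over the wild type, and ± gives the error that the scanner's model assigns to a difference, typically 0.20. It reflects how well spots were read and leaves out variation between mice. A gene is said to have risen or fallen when the difference reached 2-fold and the scanner flagged its probe as well above background in both genotypes. Where that held on only 1 array, the dim side was set to the lowest signal that was well above background, or to the probe's own signal if higher, and the result is called a bound. Where the lowest signal was used, the size is given as at least so many fold. Counts of list genes tested include such bounds, while medians and counts of positive or negative values are over genes measured on both arrays. In a whole tissue, fewer cells of a type and less RNA per cell cannot be told apart.

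Cat itself was read first. Its brighter probe had a scaled signal of 29714 in the wild type and 2196 in the knockout, a log2 difference of -3.76 ± 0.20 or 13.5-fold lower. The other Cat probe fell from 13968 to 778, by 4.17 ± 0.20 on the log2 scale. On the high-fat arrays the brighter probe stood at 26999 in the wild type and 1928 in the knockout. The knockout value was thus lower for both probes on normal diet and for the brighter probe on high-fat diet, which matches the labels. The signal left in the knockout was well above background, and the labels do not say whether the probes lie inside the part of the gene that was altered.

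Over the whole array the genotypes differed little for most genes. Of 20886 named genes, 13779 were well above background on both arrays, 597 only in the wild type, 326 only in the knockout and 6184 on neither. Among those measured on both, 92.2% differed by less than 1.5-fold and 97.7% by less than 2-fold, and the median difference was -0.01. By the 2-fold rule 206 genes rose and 368 fell, which is 3.9% of the 14702 genes that could be tested, 1.4% upwards and 2.5% downwards. Of these, 92 increases and 166 decreases rest on a bound. Counts within gene lists below are to be read beside these shares of 1.4% and 2.5%. Scaling the arrays to their median moved the median of all genes from -0.01 to 0.13 and gave 264 increases and 285 decreases, and quantile normalization gave 252 and 300, so how far decreases outnumbered increases varied with the scaling. At 1.5-fold 10.5% of tested genes changed and at 3-fold 1.6%. Among the measured genes the excess lay in the dim part of the range. Among the 2756 dimmest genes 32 rose and 91 fell, while among the 2756 brightest 16 rose and 18 fell. A further probe of the same gene was measured for 44 changed genes. It lay in the same direction for 39, reached 2-fold the same way for 22 and reached 2-fold the opposite way for 0.

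**Figure D1:**
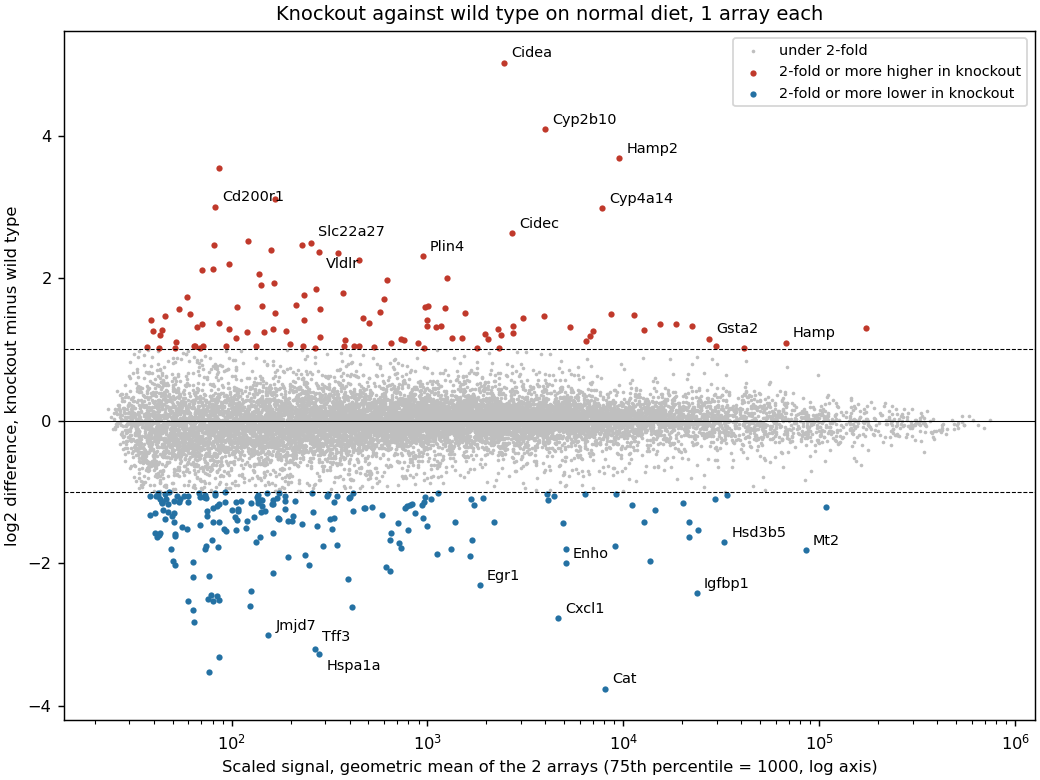
Log2 difference between the knockout and the wild-type array on normal diet (vertical axis) against the geometric mean of the 2 scaled signals (log axis) for the 13779 genes measured on both arrays, 1 point per gene. Dashed lines mark 2-fold. Red points are 114 genes that rose and blue points 202 that fell; Cat lies at -3.76 and Cidea at 5.03, and 97.7% of genes lie between the lines.

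Genes of fat storage gave the largest measured increase. Cidea, which encodes a protein that lets small lipid droplets merge into larger ones, had a scaled signal of 433 in the wild type and 14108 in the knockout, a rise of 5.03 ± 0.20 or 32.6-fold. Cidec, its relative with the same role, rose from 1086 to 6732, by 2.63 ± 0.20, and its second probe rose by 2.28 ± 0.21. Plin4, a perilipin that coats droplets, went from 426 to 2109 and rose by 2.31 ± 0.20. Transcripts of both fusion proteins and of the coat protein were thus several-fold higher on the knockout array. Mogat1, an acyltransferase of triglyceride synthesis, rose by 2.26 ± 0.21, from 205 to 981. G0s2, an inhibitor of the lipase that opens droplets, rose by 1.31 ± 0.20, from 3399 to 8432. Of the uptake genes, the lipoprotein receptor Vldlr rose by 2.37 ± 0.22 and the fatty acid carrier Cd36 by 1.51 ± 0.20. Lpl, the lipoprotein lipase, was the member that fell, from 647 to 268 or by 1.27 ± 0.21. In all, 7 of the 29 lipid droplet genes tested rose and 1 fell, 24 of the values were positive, and the median was 0.37 beside -0.01 for all genes. The perilipins Plin2 and Plin5, which coat droplets in hepatocytes, did not reach 2-fold, with differences of 0.29 and 0.65.

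The Cyp2b cytochrome P450 genes rose by the widest margins of the drug-metabolism genes. Cyp2b10, a steroid and drug hydroxylase best known as a target of the receptor CAR, had a scaled signal of 969.7 in the wild type and 16517 in the knockout, a rise of 4.09 ± 0.20 or 17.03-fold. Cyp2b13 and Cyp2b9, which in mice are more active in female liver, were not well above background in the wild type. Cyp2b13 stood at 23.9 and 1196, a ratio of 50.01-fold, and Cyp2b9 at 22.1 and 907, a ratio of 41.0-fold. Their wild-type signals lay over 21.4, the lowest signal well above background on that array, so these are ratios of the probes' own signals and not lower limits, with errors of 0.40 and 0.44 on the log2 scale. The separate values of these paralogs are uncertain, because near-identical transcripts can bind each other's probes. The start regions show how alike they are. RefSeq's 250 bases upstream of the start on GRCm38.p6 are printed below, 5′ to 3′, because the 2 genes moved together; capitals mark the bases that differ between them.
Cyp2b9, chr7:26173159-26173408, plus strand: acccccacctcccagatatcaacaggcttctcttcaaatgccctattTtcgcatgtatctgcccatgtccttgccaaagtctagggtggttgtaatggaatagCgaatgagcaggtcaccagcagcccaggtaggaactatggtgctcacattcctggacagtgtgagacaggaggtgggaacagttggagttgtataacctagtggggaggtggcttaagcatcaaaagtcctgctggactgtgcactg
Cyp2b13, chr7:26061245-26061494, plus strand: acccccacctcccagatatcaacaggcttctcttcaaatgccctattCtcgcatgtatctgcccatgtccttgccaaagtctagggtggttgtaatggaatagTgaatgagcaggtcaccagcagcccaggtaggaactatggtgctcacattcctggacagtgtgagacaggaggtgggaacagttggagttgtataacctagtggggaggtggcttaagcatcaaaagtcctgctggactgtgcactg
These windows were 99.2% identical, with 248 of 250 bases shared and the substitutions T48C and C104T from Cyp2b9 to Cyp2b13, counted from the 5′ end of the window. A CAR-bound site was not searched for.

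Targets of CAR and the related receptor PXR, these 3 genes included, counted 4 increases and 2 decreases among 29 tested, and their median was 0.30. The other increase was in Gsta2, a glutathione transferase, which rose from 18354 to 40696, by 1.15 ± 0.20. Its near-identical neighbours Gm3776 and Gm10639 also rose, by 1.49 ± 0.20 and 1.33 ± 0.20, and the array probes may not tell these copies apart. Gadd45b, a growth arrest gene, fell by 1.89 ± 0.21 and Abcb1b, a drug efflux pump, by 1.20 ± 0.22. Nr1i3, the gene of CAR itself, differed by 0.76 and Cyp3a11, the main PXR target, by 0.23, both under 2-fold. The Cyp2c family had 0 changed genes among 11, with a median of -0.09, but a second, dimmer probe of Cyp2c38 went from 151 to 421, by 1.48 ± 0.21, against 0.20 on its brighter probe. The UDP-glucuronosyltransferases had 0 among 14 with a median of 0.00. By the brightest probe of each gene, the increases in the P450 lists were those of Cyp2b, of the Cyp4a genes described below and of Cyp2a4. Cyp2a4, a steroid hydroxylase more active in females, rose from 110740 to 273430 or by 1.30 ± 0.20. Cyp1a2 and Cyp2e1, drug-metabolizing enzymes of the hepatocytes near the central vein, differed by -0.08 and 0.07.

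Genes with sex-biased expression in mouse liver were then counted in these males. The female-biased list had 14 increases and 0 decreases among 26 tested and a median of 0.89. The male-biased list had 0 increases and 7 decreases among 34, a median of -0.55 and 31 negative values. These and all other lists were drawn up with earlier results of these arrays known, so their directions are not independent evidence. Besides the P450 genes above, the female-biased list includes Slc22a27, an organic anion transporter, which rose from 107 to 602 or by 2.49 ± 0.21. Its neighbour in the family Slc22a29 rose by 2.47 ± 0.22, from 97.1 to 537, and Slc22a26 by 1.57 ± 0.34. These transporters share sequence, so probes may read more than 1 of them. Ntrk2, a neurotrophin receptor, rose by 1.59 ± 0.20 and Tox, a nuclear protein best known in T cells, by 1.13 ± 0.21.

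On the male-biased side the largest difference was in Moxd1, a copper monooxygenase relative, with 2865 in the wild type and a signal of 14.5 in the knockout that was not well above background. It was at least 127-fold lower. Hsd3b5, a steroid dehydrogenase of male liver, fell from 59062 to 18162 or by 1.70 ± 0.20. Slco1a1, an uptake transporter for bile acids and steroids, fell from 9087 to 4473, by 1.02 ± 0.20. Each of these signals was also lower in the knockout than in the wild type on the high-fat diet. Serpina12, an adipokine-like serpin, fell by 1.34 ± 0.21 and C6, a complement component, by 1.03 ± 0.20. Cyp7b1, which hydroxylates oxysterols, and Cyp4a12a, a male fatty acid hydroxylase, lay at -0.97 and -0.54, short of 2-fold. The major urinary proteins, a male-biased family, had 0 changed members among 16 tested with their lipocalin relatives, and Mup20 differed by -0.04. These and other lists appear side by side in the plot of list members.

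**Figure D2:**
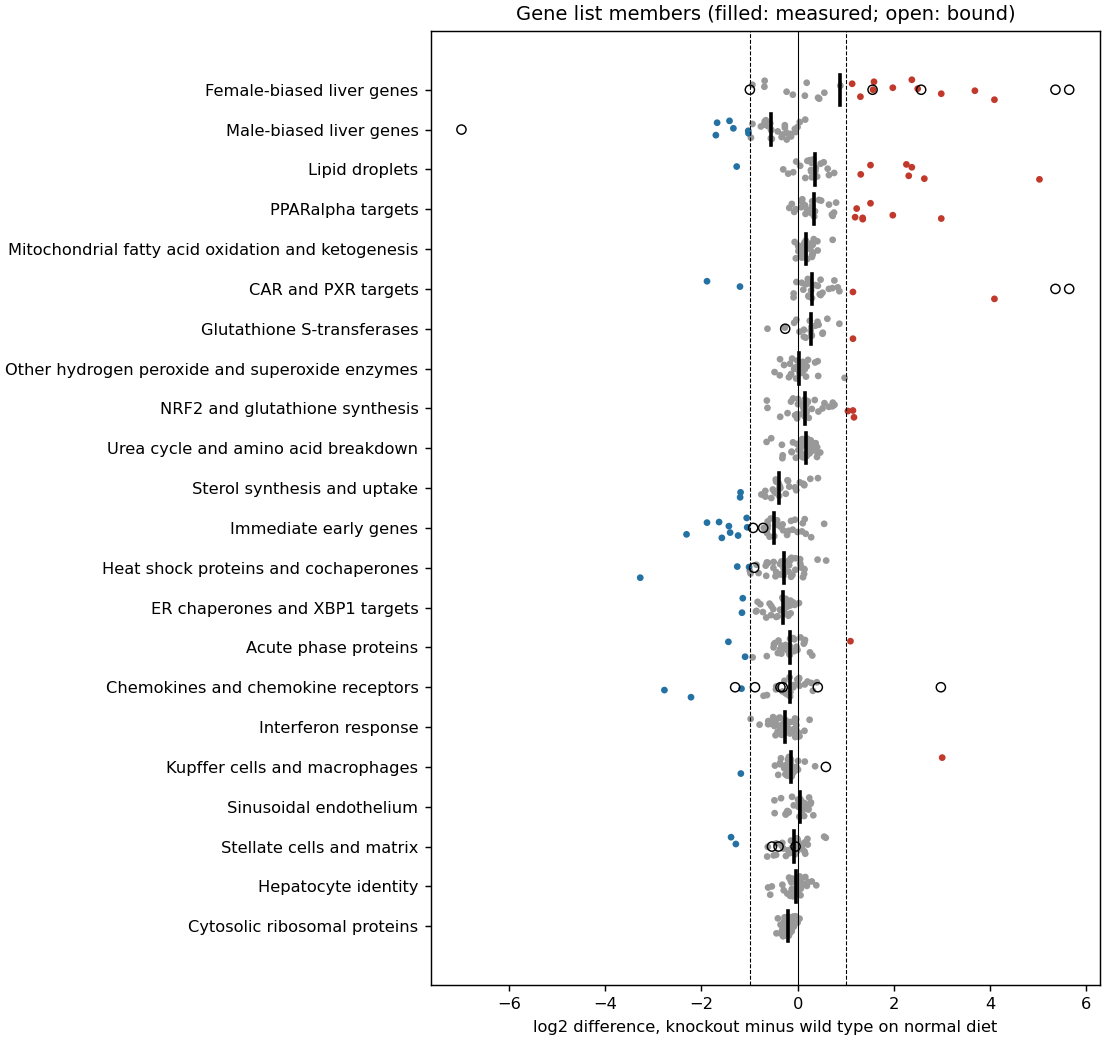
Log2 difference between knockout and wild type on normal diet for the members of 22 gene lists, 1 row per list. Filled points are genes measured on both arrays (red at 2-fold or more higher, blue at 2-fold or more lower, grey between), open circles are bounds and black bars are the medians of the measured genes; dashed lines mark 2-fold. The median is 0.89 for female-biased and -0.55 for male-biased genes, while endothelial and hepatocyte identity genes have 0 points past the dashed lines.

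Growth hormone acts on hepatocytes through JAK2 and STAT5, and SOCS proteins are induced by it and by cytokines to shut the signal off. Of 21 growth hormone signalling genes 4 fell and 0 rose, and the median was -0.17. Socs2, the family member most tied to growth hormone, had 3017 in the wild type and 945 in the knockout and fell by 1.68 ± 0.06, a value averaged over several spots of the probe. Socs1 fell by 1.63 ± 0.22, from 244 to 79.2, and Socs3, the brake on interleukin 6 signalling, by 1.44 ± 0.20, from 8055 to 2967. Egfr, the receptor for epidermal growth factor, which growth hormone maintains in male liver, fell from 35386 to 13248 or by 1.42 ± 0.07. The 3 SOCS genes measured and Egfr thus shared a direction, while the receptor gene Ghr differed by 0.13 and the main hormone target Igf1 by -0.19. Cish, another STAT5 target, lay at -0.70.

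Secreted factors of the liver fell more often than they rose, with 0 up and 5 down of 28 tested and a median of -0.18. Igfbp1, an IGF binding protein that insulin represses and stress induces, fell from 54783 to 10204 or by 2.42 ± 0.20. Enho, which encodes adropin, fell from 10146 to 2535 or by 2.00 ± 0.20. Igfbp6 fell by 1.75 ± 0.21 and Inhba, an activin subunit, by 1.18 ± 0.20. Fgf21, a hormone of fasting and amino acid shortage, differed by 0.36 and Gdf15, a hormone of cell stress, by -0.67.

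PPARα is the receptor that senses fatty acids. Of 31 targets tested, 7 rose, 0 fell and 27 were positive, with a median of 0.34. Cyp4a14, an omega-hydroxylase of fatty acids, rose from 2777 to 21975 or by 2.98 ± 0.20. Cyp4a10 rose by 1.35 ± 0.20, Cyp4a31 by 1.35 ± 0.20 and Cyp4a32 by 1.19 ± 0.20. The last 3 are close copies whose probes may read each other, so their separate values are uncertain. Dimmer probes gave 1.43 and 0.76 for Cyp4a10 and 1.51 and 0.30 for Cyp4a31, so not every probe reached 2-fold. Acot3, a peroxisomal acyl-CoA thioesterase, rose from 314 to 1238, by 1.98 ± 0.21, and Vnn1, a pantetheinase, from 1784 to 4173, by 1.23 ± 0.20. Pex11a, which drives peroxisome division, stood at 22674 and 39448, a difference of 0.80 ± 0.06 that stayed under 2-fold. The oxidation genes Ehhadh and Cpt1a stayed under 2-fold, at 0.28 and 0.20.

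Fatty acid oxidation genes differed by less. Of 29 genes of mitochondrial oxidation and ketone synthesis, 27 were positive with a median of 0.17, and 0 reached 2-fold. Among 15 acyl-CoA thioesterases 2 rose, Acot3 and Acot11, the latter by 1.32 ± 0.20. Of 52 genes of peroxisome biogenesis and lipid oxidation, 2 rose, beside 1.4% of all genes tested, with a median of 0.15. Beside Acot3 this was Abcd2, a peroxisomal importer of very long fatty acyl chains, which was not well above background in the wild type at 11.7 and stood at 62.9 in the knockout, at least 2.94-fold higher. Medians of this size are close to the shift that scaling alone makes, and they would be larger under median scaling.

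The enzymes nearest to catalase in function did not reach 2-fold under 75th percentile scaling. Of 32 other genes for the removal of hydrogen peroxide and superoxide, 0 changed, and the median was 0.03. Under median scaling, quantile normalization and cyclic loess 1 of them rose. Gpx1, the main glutathione peroxidase of liver, had 347000 in the wild type and 339430 in the knockout. Prdx1, a cytosolic peroxiredoxin, stood at 91754 and 83366, Prdx6 at 148750 and 151280, and Sod1, the cytosolic superoxide dismutase, at 222060 and 229100. For each of these abundant transcripts the difference was smaller than the scanner error of 0.20. Gpx2, a glutathione peroxidase better known from the gut, had the largest difference of the list at 0.97. With 1 array per genotype, smaller differences could not be resolved.

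Enzymes that make hydrogen peroxide also stayed mostly level. Of 31 oxidases tested, 1 rose and 1 fell, beside 1.4% and 2.5% of all genes tested, and the median was 0.00. Hao2, a peroxisomal hydroxy acid oxidase that is female-biased, had a signal of 6.73 in the wild type and 127 in the knockout and was at least 5.92-fold higher. Aox2, an aldehyde oxidase, was at least 2.76-fold lower. Uox, the urate oxidase of the peroxisome core, differed by -0.06, and Hao1 by -0.35.

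NRF2 is a transcription factor that turns on antioxidant and conjugating genes when its sensor KEAP1 is oxidized. Of 39 genes of this pathway and of glutathione synthesis, 3 rose and 0 fell, and the median was 0.15. Nqo1, a quinone reductase, rose from 187 to 422 or by 1.17 ± 0.21. Me1, a malic enzyme that supplies NADPH, rose from 20664 to 42609, by 1.04 ± 0.20, and Gsta2 is given above. The dimmer Me1 probes differed by 0.69 and 0.87, under 2-fold, and with the mean of all probes 2 genes of this list rose. Other targets stayed under 2-fold, with 0.14 for Gclc, the rate-limiting enzyme of glutathione synthesis, 0.11 for Srxn1, -0.01 for Txnrd1 and -0.36 for Hmox1. The glutathione transferases had a median of 0.29 over 22 genes, of which 17 were positive and Gsta2 alone rose.

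The probes of both hepcidin genes read higher in the knockout. Hepcidin, encoded by Hamp, is the hormone with which hepatocytes limit iron entry into blood, and BMP and interleukin 6 signals induce it. Hamp had a scaled signal of 46015 in the wild type and 98431 in the knockout, a rise of 1.097 ± 0.20. Hamp2, a close copy that is female-biased, went from 2661 to 34198 and rose by 3.68 ± 0.20 or 12.9-fold. On the high-fat arrays Hamp2 stood at 19342 in the wild type and 9014 in the knockout, in the opposite order. Hamp stood there at 59080 and 38724, also lower in the knockout. As these are close copies, a probe may read both, so their separate values are uncertain. The 250 bases upstream of both genes in RefSeq on GRCm38.p6 are printed because the copies moved by unequal amounts; capitals mark the BMP response element core GGCGCC and STAT sites of the form TTCNNNGAA, searched on both strands, and lower case marks the rest.
Hamp, chr7:30944030-30944279, minus strand: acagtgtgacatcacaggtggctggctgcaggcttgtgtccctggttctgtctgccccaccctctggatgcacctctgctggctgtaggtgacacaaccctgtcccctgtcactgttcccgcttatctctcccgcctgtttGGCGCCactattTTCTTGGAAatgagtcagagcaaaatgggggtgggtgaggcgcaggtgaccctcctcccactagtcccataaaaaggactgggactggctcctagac
Hamp2, chr7:30924182-30924431, minus strand: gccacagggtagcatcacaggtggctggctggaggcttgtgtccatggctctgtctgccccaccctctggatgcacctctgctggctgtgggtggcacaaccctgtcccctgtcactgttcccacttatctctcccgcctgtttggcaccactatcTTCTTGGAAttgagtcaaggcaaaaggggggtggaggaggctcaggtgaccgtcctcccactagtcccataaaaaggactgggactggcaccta
Over 247 aligned bases the windows were 91.9% identical. Both hold 1 STAT site, a motif found in 7.02% of 32851 windows of this length, while GGCGCC was found in Hamp and not in Hamp2. The aligned substitution inside it is G145A, counted from the 5′ end of the Hamp window. GGCGCC occurred in 9.59% of windows, and a match or its lack is a description of these letters only. Of the 25 iron genes 2 rose, both hepcidins, and 0 fell. The BMP-responsive Id1 and Smad7 differed by 0.04 and -0.09, Bmp6 by -0.02 and the transferrin receptor gene Tfrc by -0.65. Smad6 and Hjv of the same list lay higher, at 0.64 and 0.43, both under 2-fold. Of the iron values 13 were positive and 12 negative.

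Among heat shock genes Hspa1a, the inducible HSP70 chaperone, had the largest decrease. Its probe had a scaled signal of 871 in the wild type and 90.1 in the knockout and fell by 3.27 ± 0.23 or 9.67-fold. Hspa1b is a near-identical copy, so the probe may read both. Its partner Dnajb1 fell from 22308 to 9339 or by 1.26 ± 0.20 and the cochaperone Dnaja4 by 1.01 ± 0.20. Of 45 heat shock genes tested, 0 rose and 3 fell, 34 were negative and the median was -0.28, or -0.14 under median scaling. Just short of 2-fold were the small chaperone Hspb1 at -0.995 and Hsph1, an HSP70 exchange factor, at -0.98, and Hsp90aa1 lay at -0.81. The constitutive Hspa8 differed by -0.29. The RefSeq window upstream of Hspa1a on GRCm38.p6 is printed because this gene had the largest fall of the list; capitals mark the heat shock element core, searched as GAANNTTC or TTCNNGAA on both strands.
Hspa1a, chr17:34972157-34972406, minus strand: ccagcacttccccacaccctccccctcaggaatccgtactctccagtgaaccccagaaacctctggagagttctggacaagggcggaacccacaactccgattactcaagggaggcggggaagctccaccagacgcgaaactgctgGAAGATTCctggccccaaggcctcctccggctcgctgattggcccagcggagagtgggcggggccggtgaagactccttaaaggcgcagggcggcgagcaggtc
It holds 1 match, 97 to 104 bases before the start, and 12.8% of windows of this length hold at least 1.

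Immediate early genes are switched on within minutes by growth factors or stress. Of 37 tested, 9 fell and 0 rose (7 and 0 under median scaling, 6 and 0 under normexp), and 29 values were negative, with a median of -0.49. The zinc finger factor Egr1 had 4117 in the wild type and 829.7 in the knockout and fell by 2.31 ± 0.20. The AP-1 subunits Fos and Junb fell by 1.58 ± 0.07 and 1.24 ± 0.22, with Fos at 282 and 94.6, while Jun differed by -0.49. The stress factor Atf3 fell by 1.40 ± 0.25 and the antiproliferative Btg2 by 1.43 ± 0.20. Gadd45g fell from 38121 to 12278, by 1.63 ± 0.20, and the phosphatase Dusp2 and the clock-linked repressor Nfil3 by 1.05 ± 0.22 and 1.06 ± 0.20. The p53 target list lost 3 genes of 33, all of them Gadd45 genes or Btg2 and so already counted here.

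Chaperones of the endoplasmic reticulum fold secreted proteins. Of 34 tested, 33 were negative with a median of -0.31, 2 fell and 0 rose. Creld2, a target of the unfolded protein response, fell from 30172 to 13519, by 1.16 ± 0.07, and Fkbp11, a prolyl isomerase, by 1.14 ± 0.21. Hspa5, the main chaperone BiP, stood at 81832 and 52007, a difference of -0.65. Under median scaling the list's median was -0.17. In the amino acid stress list of ATF4, 1 of 31 genes rose and 1 fell, Asns, the asparagine synthetase, by 1.22 ± 0.20, and the riser was Vldlr.

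Metallothioneins bind zinc and copper and are induced by metals, glucocorticoids and stress. Mt2 had 159750 in the wild type and 45336 in the knockout and fell by 1.82 ± 0.20, and Mt1 went from 163520 to 70714 and fell by 1.21 ± 0.20. They were the 2 decreases among 21 metallothionein and zinc transporter genes. RefSeq's windows upstream of both on GRCm38.p6 are printed because the neighbouring genes fell together; capitals mark the metal response element core TGCGCNC or TGCACNC on either strand.
Mt1, chr8:94178839-94179088, plus strand: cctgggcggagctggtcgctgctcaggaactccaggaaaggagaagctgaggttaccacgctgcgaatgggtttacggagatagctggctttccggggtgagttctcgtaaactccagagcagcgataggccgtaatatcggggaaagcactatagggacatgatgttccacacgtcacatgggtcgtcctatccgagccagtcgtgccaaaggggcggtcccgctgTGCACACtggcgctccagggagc
Mt2, chr8:94172368-94172617, plus strand: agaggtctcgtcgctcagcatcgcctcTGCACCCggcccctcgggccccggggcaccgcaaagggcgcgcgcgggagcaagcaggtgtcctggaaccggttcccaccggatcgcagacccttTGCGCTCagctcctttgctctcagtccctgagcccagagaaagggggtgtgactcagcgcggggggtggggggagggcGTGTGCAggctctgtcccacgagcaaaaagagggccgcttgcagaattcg
The first window holds 1 match and the second 3, while 21.4% of windows of this length hold at least 1 and 5.17% at least 2. Only the 250 bases before RefSeq's start were searched. The counts therefore leave out any element elsewhere in or near either gene and do not rank the genes. The windows shared 53.4% of 232 aligned bases. Of 27 genes induced by glucocorticoids, 4 fell, namely Mt1, Mt2, Igfbp1 and Gadd45b, and 0 rose, with a median of -0.13 that became 0.01 under median scaling.

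Single chemokine genes were among the largest decreases. Cxcl1, which attracts neutrophils, had 12171 in the wild type and 1784 in the knockout and fell by 2.77 ± 0.20. Ccl2, which attracts monocytes, fell from 848 to 182 or by 2.22 ± 0.07, and Cxcl10, an interferon-induced attractant of T cells, by 1.17 ± 0.20. Of 35 chemokine and receptor genes tested, 4 fell and 1 rose, Cxcr2, a neutrophil receptor that was not well above background in the wild type at 17.2 and stood at 168 in the knockout, at least 7.87-fold higher. Cytokine, adhesion and NF-κB genes had 2 decreases by a bound, Rel and Lif, among 29. Saa2, an acute phase protein, fell by 1.09 ± 0.20, from 42642 to 19983, and Saa1 differed by -0.94. The acute phase list counted 1 up and 2 down of 33, beside 1.4% and 2.5% of all genes tested, with a median of -0.17. Interferon response genes had 40 of 46 negative values and a median of -0.26, but 0 changed, and the MHC class II genes had a median of -0.28 with 0 changed of 13.

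Markers of the cells that make up liver were counted and summed by cell type. Hepatocyte identity genes had 0 changed of 37 and a median of -0.03, and the signals of Alb, albumin, were 711950 and 666090. The 6 Kupffer cell and macrophage markers lay between -0.40 and -0.09, and their summed signal was 37210 in the wild type and 31770 in the knockout. In the longer macrophage list Marco, a scavenger receptor, fell from 2596 to 1144, by 1.18 ± 0.20, and Cd200r1, which restrains myeloid cells when it binds CD200, rose from 29.1 to 234, by 3.00 ± 0.31. Sinusoidal endothelial markers lay between -0.48 and 0.32, with sums of 33440 and 33310, and stellate cell markers between -0.63 and -0.02, with sums of 53760 and 46630. Neutrophil markers summed to 1788 and 1054 and bile duct markers to 497 and 283, lower in the knockout in both. In the longer neutrophil list, of 14 tested, Mpo, myeloperoxidase, was at least 3.70-fold higher, from 13.2 in the wild type, not well above background, to 79.1, Cxcr2 was also higher as given above, and Retnlg fell by 1.32 ± 0.35. The defining genes Ngp of neutrophils and Epcam of bile duct were not well above background on either array, and S100a8, S100a9, Krt19 and Sox9 lay between -0.95 and -0.88. The other markers measured on both arrays differed less, Camp of neutrophils by -0.24 and Tspan8 of bile duct by -0.35. Most of the neutrophil sum came from S100a9, at 1173 and 634.

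Of markers of T, NK and B cells, Cd79a was at least 5.27-fold lower, Cd8a was not well above background and the sums were 4088 and 3394. Whether shares of these cells take part in the decreases of chemokine and stress genes was not tested. A list of markers for neighbouring tissue that can come along in dissection had 15 tested genes, of which 1 rose and 0 fell. It was Ins1, an insulin gene, which rose by 2.11 ± 0.28, from 34.2 to 147, while Ins2 differed by -0.29 and the pancreatic Cela1 by -0.62. All 3 muscle markers, the pancreatic Cela3b and Pnlip and the fat markers Adipoq and Lep were not well above background on both arrays. The fat-tissue list members Cfd and Retn lay at -0.35 and 0.28, but a dimmer Retn probe rose from 38.8 to 83.6, by 1.11 ± 0.30. Red cell markers summed to 33890 and 38060.

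Bile duct and keratin genes held larger single differences than their markers. Tff3, a trefoil factor of mucous epithelia, fell from 804 to 87.5 or by 3.20 ± 0.22. Krt20, a keratin of gut epithelium, stood at 236 and at 4.77, not well above background, and was at least 10.5-fold lower. Krt23, a keratin that stressed hepatocytes express, rose from 627 to 2522, by 2.01 ± 0.20. The list had 20 of 23 measured values negative, with a median of -0.35.

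In glucose handling, Slc2a4, the insulin-regulated glucose transporter GLUT4 of muscle and fat, rose from 69.5 to 366, by 2.40 ± 0.07. Pfkfb3, which makes an activator of glycolysis, fell by 1.03 ± 0.20, while its dimmer probe differed by -0.40. The gluconeogenic genes Pck1 and G6pc differed by -0.20 and 0.06. The genes of glucose, glycogen and insulin signalling had a median of 0.12.

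Fatty acid and triglyceride synthesis genes had 3 increases among 37 and a median of 0.14. Gpat3, a glycerol phosphate acyltransferase, rose by 1.42 ± 0.20, from 610.3 to 1631, beside Mogat1 and, by its brightest probe only, Me1. The synthase Fasn and the desaturase Scd1 differed by 0.01 and 0.15. Sterol synthesis and uptake genes had a median of -0.39, and 23 of 29 values were negative. Sqle, squalene epoxidase, fell from 16773 to 7363 or by 1.19 ± 0.20. Nr0b2, the bile acid-induced repressor SHP, fell by 1.29 ± 0.20, the 1 change among 23 bile acid genes, and Cyp7a1, the rate-limiting enzyme of bile acid synthesis, differed by -0.19.

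Clock genes had 3 increases and 1 decrease among 28. The circadian repressor Ciart rose from 314 to 812 or by 1.37 ± 0.21, the deubiquitinase Usp2 from 1869 to 5092 or by 1.45 ± 0.20, and the kinase Wee1 by 1.13 ± 0.20. Nfil3 fell, as given above, and Arntl, the clock activator BMAL1, lay at -0.94, from 360 to 187. Dbp, a clock output factor, stood at 26821 and 42021, a difference of 0.65. Per1, Per2 and Nr1d1 differed by 0.15, 0.17 and -0.26. The hour at which each liver was taken was not given, and its part in these differences was not tested.

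Housekeeping groups differed little. The 73 oxidative phosphorylation subunits had a median of 0.02, the 38 proteasome subunits 0.02 and the 37 cell cycle genes 0.05, with 0 changed genes in each. Of 77 cytosolic ribosomal protein genes 76 were negative, with a median of -0.20 and 0 changed. That median was -0.05 under median scaling, so the size of this uniform offset depends on the scaling. Urea cycle and amino acid breakdown genes had 40 of 50 positive values and a median of 0.17, again with 0 changed.

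Among the remaining large differences several were in genes of low signal. Rragd, a Rag GTPase that relays nutrient signals to mTORC1 on lysosomes, rose from 25.2 to 295 or by 3.55 ± 0.33. Tafa2, a secreted chemokine-like protein, rose by 3.11 ± 0.24, from 56.5 to 489, and Nek2, a centrosome kinase, by 2.52 ± 0.25. Osbpl3, an oxysterol-binding protein relative, rose from 155 to 790.03, by 2.35 ± 0.21, and Cnbd2 by 2.47 ± 0.27. Syt9, a synaptotagmin, fell by 3.31 ± 0.31, Spef2, a protein of sperm flagella, fell by 2.83 ± 0.34 and the non-coding RNA Celrr fell by 3.53 ± 0.35. Tnfrsf26, Tes, Xlr4a, Ppp1r3e, Sh3pxd2a and Lyar fell by between 2.46 and 2.65. Adgrf1, an adhesion receptor, fell from 1023 to 168 or by 2.61 ± 0.21. The largest bounds outside those named were Olfr224, Cend1 and Map2, at least 16.8-fold, 13.05-fold and 12.5-fold higher, and Capn3, Zfp185, Synpr and Hdgfl1, each at least 11.7-fold to 12.3-fold lower.

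The remaining 2 arrays show where these levels sit. On the high-fat wild-type array Cidea stood at 4580, Cyp2b10 at 20721, Cyp4a14 at 48544 and Slc22a27 at 1244. All 4 were well over the wild type on normal diet, and the high-fat knockout values were 18829, 26522, 26852 and 1320. Hsd3b5 stood at 17696 in the high-fat wild type and 2349 in the high-fat knockout, Sqle at 3359 and 2241 and Moxd1 at 80.8 and 5.11. Diet comparisons within a genotype share arrays with the comparison described here and are not counted against it.

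**Figure D3:**
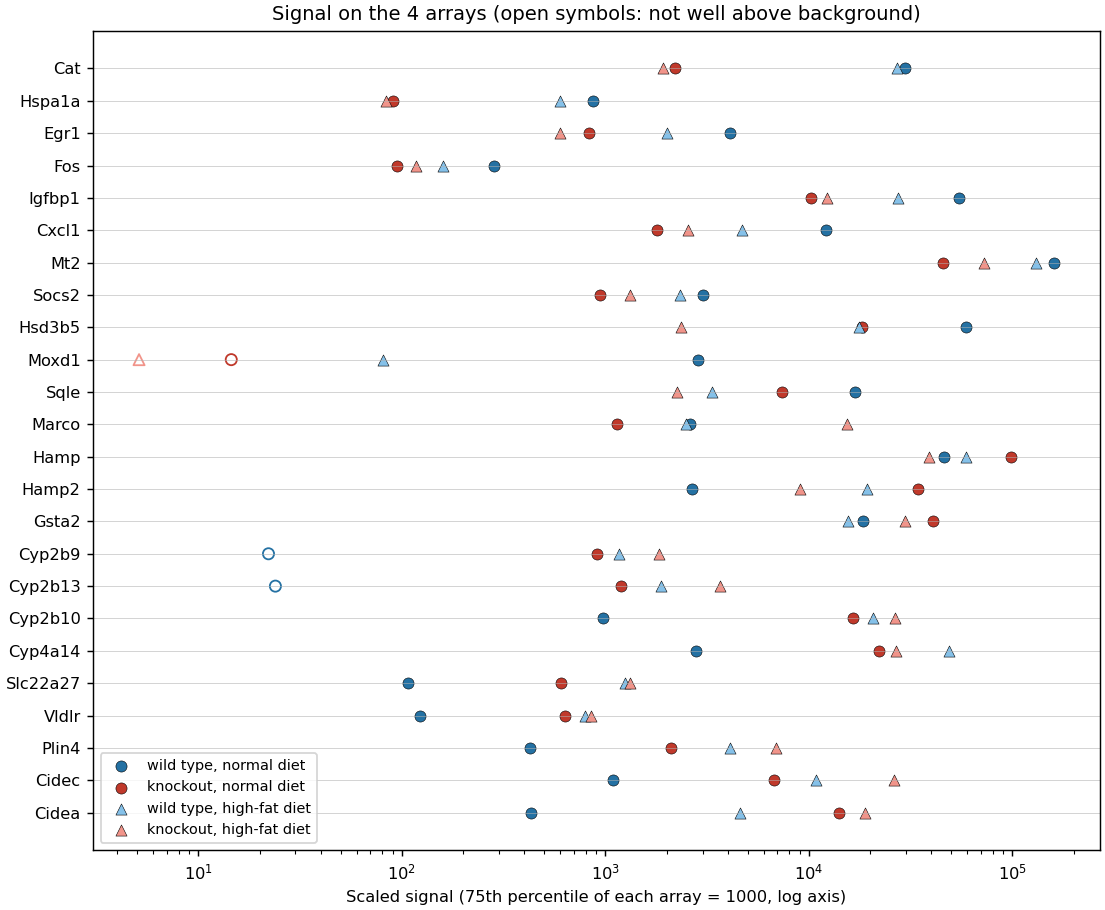
Scaled signal on the 4 arrays (log axis, 75th percentile of each array at 1000) for 24 genes, with circles for normal and triangles for high-fat diet, blue for wild type and red for knockout. Open symbols were not well above background. Cat separates the genotypes on both diets, with 29714 and 26999 against 2196 and 1928, while Cyp2b10 is low only on the wild-type normal-diet array among these 4, at 969.7.

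The high-fat pair repeats the genotype comparison on arrays that the normal-diet pair does not share. There 373 genes rose (2.51% of 14844 tested) and 236 fell (1.59%), 4.1% in all. Of the 206 genes that rose on normal diet, 27 also rose on high-fat diet, which is 13.1% of the first list and 7.24% of the second, and 15 fell. Only 155 of the 206 could be tested on high-fat diet, so the 27 are 17.4% of these. Of the 368 that fell, 48 also fell, 13.04% of the first list and 20.3% of the second, and 14 rose, and 258 could be tested there, which makes 18.6%. Among genes measured on all 4 arrays, the 108 that rose on normal diet had a median of 1.32 there and 0.39 on high-fat diet, and the 180 that fell had medians of -1.29 and -0.23. Beside this, the median of all genes on high-fat diet was -0.04. Across the 13550 genes measured in both pairs the differences had a Pearson correlation of 0.19, as a description only, since genes are not independent replicates.

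Genes that changed the same way in both pairs rest on 4 arrays. Cidea rose by 5.03 and 2.04, Cidec by 2.63 and 1.27 and Osbpl3 by 2.35 and 1.03, in the order normal and high-fat diet. Ly6d, a surface protein of the Ly6 family, rose by 1.85 and 4.27, from 142 to 511 and from 461 to 8876. Slc35f2, a solute carrier, rose by 2.20 and 2.10, Plcd3, a phospholipase C, by 2.06 and 2.81, and Cd200r1 by 3.00 and 1.07. Hspa1a fell by 3.27 and 2.84, Egr1 by 2.31 and 1.76, and Gadd45g by 1.63 and 2.13. Socs1 fell by 1.63 and 2.20, Socs3 by 1.44 and 1.22, and Egfr by 1.42 and 1.05. Differences were -2.42 and -1.16 for Igfbp1, -2.00 and -1.29 for Enho, -1.70 and -2.91 for Hsd3b5, and -1.02 and -2.43 for Slco1a1. Avpr1a, a vasopressin receptor of hepatocytes near the central vein, fell by 1.33 and 1.78, and Tff3 by 3.20 and 1.06.

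Several of the largest increases on normal diet had no 2-fold increase on high-fat diet. Cyp2b10 differed by 0.36 on high-fat diet, Vldlr by 0.09, Slc22a27 by 0.09 and Cyp4a14 by -0.85. The female-biased list, with 14 increases on normal diet, had 0 increases and 5 decreases among 27 tested on high-fat diet and a median of 0.07. Male-biased genes had 7 decreases on each diet and medians of -0.55 and -0.39. The 7 were not the same genes. C6, Serpina12 and Socs2 lay at -0.35, 0.19 and -0.81 on high-fat diet, while Hsd3b5, Moxd1, Slco1a1 and Egfr fell 2-fold on both diets. The lipid droplet list had 5 increases on high-fat diet and a median of 0.21, and PPARα targets 0 and a median of -0.02. Macrophage genes, with 1 up and 1 down on normal diet, had 14 up and 0 down on high-fat diet, with medians of -0.14 and 0.93. None of these differences between diets was tested.

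**Figure D4:**
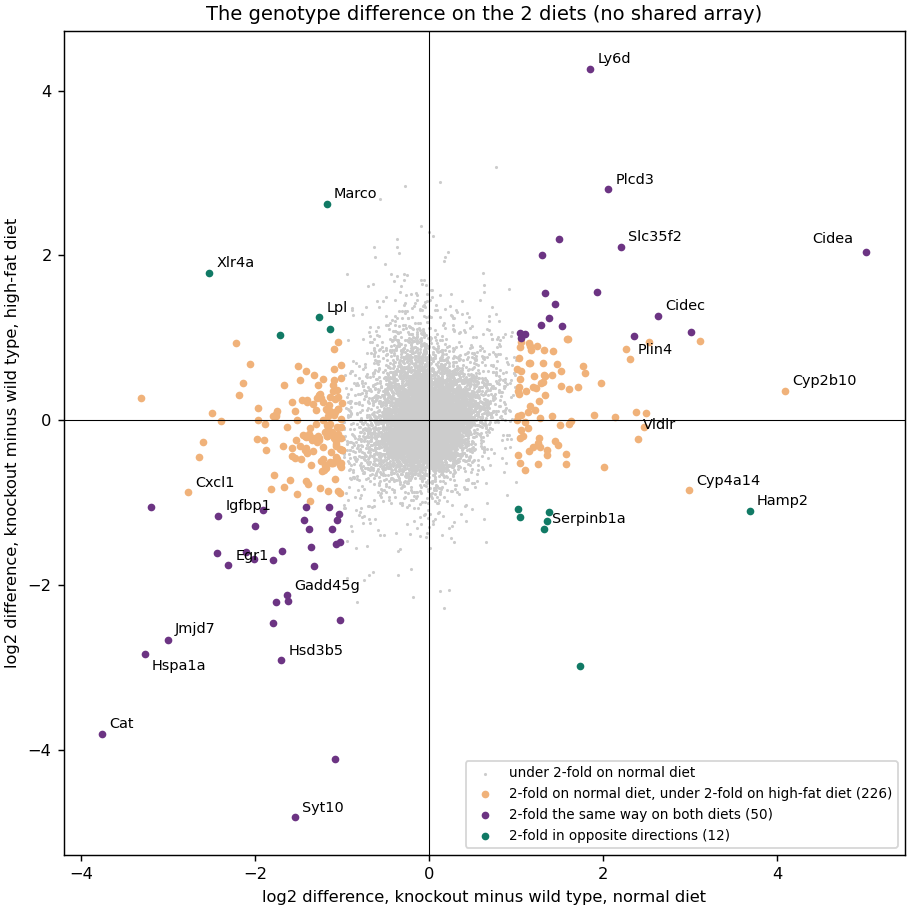
Log2 difference between knockout and wild type on normal diet (horizontal axis) against the same difference on high-fat diet (vertical axis), 1 point per gene for the 13550 genes measured on all 4 arrays. Purple points changed 2-fold the same way on both diets (50 genes), green points in opposite directions (12 genes) and orange points on normal diet alone by this rule (226 genes); Cat lies at -3.76 and -3.81, Cidea at 5.03 and 2.04 and Marco at -1.18 and 2.63.

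Part of the recurring differences lay near Cat in the gene order of mouse. Of 74 genes other than Cat that changed the same way in both pairs, 13 (17.6%) were on Cat's chromosome, which holds 7.90% of all genes tested. Jmjd7, a hydroxylase gene, fell by 3.01 and 2.67, Capn3, a calpain protease, was at least 12.3-fold lower on normal diet, and Bmf, a pro-apoptotic protein, had differences of -1.07 and -1.502. In the same run Exd1 rose by 1.53 and 1.14, Chst14 by 1.29 and 2.01 and Itpka by 1.097 and 1.04. These stood with Disp2 in a run of 7 such genes within 35 tested neighbours. Among the 20 tested genes nearest to Cat, 2 changed on normal diet, Cd59b by -1.36 ± 0.22 and Abtb2 by -1.42 ± 0.20. The share changed was 8% of the nearest 50, 9% of 100, 13.5% of 200 (27 genes) and 9.25% of 400. Beside these, 3.9% of all genes changed. All these shares include genes called by a bound, and several of the 27 were olfactory receptor genes. Only 8 of these 27 also changed the same way on high-fat diet, and of the nearest 2 only Cd59b did. Another run of 5 lay on a different chromosome and included Tmem254a, which fell by 1.79 and 2.47, Tmem254c, a near-identical copy, and Plac9a, which fell by 1.80 and 1.70. Shorter runs held genes named above. Enho lay with Gm3893 and Fam205a2 in a run of 3 spanning 12 tested genes. Igfbp1 and Egfr formed a run of 2 spanning 13, and Gm3776 and Gm10639 were direct neighbours. The strain of the mice and of the knockout's origin was not given, and its part in these runs was not tested.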

How the data were processed

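Each of the 4 arrays is 1 group. The deposited files are scanner output of Feature Extraction 11.5.1.1, per the file headers, with background-subtracted intensity per spot on a linear scale. The authors' deposited value table holds intensity within 1% of these signals for 99.8% of probes, with column medians of 79.87 (wild type, normal diet), 72.38 (knockout, normal diet), 75.87 (wild type, high-fat diet) and 89.16 (knockout, high-fat diet). All arrays were on 1 slide, so slide and group positions could not be fitted.

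The processed signal was averaged per probe in log2 and scaled to the 75th percentile of the 39429 non-control probes. Names came from matching accessions to RefSeq's GRCm38.p6 table. It named 27508 probes (20886 genes) and left 11921 unnamed. The headers give mm9 as the array's build. Of 5512 genes with several probes the brightest was used.

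Named genes were Cat, the 15 largest increases and decreases at 2-fold under every normalization and background setting, the 5 largest bounds each way, up to 6 members per list, cell markers and changed neighbours of Cat. Further genes of the lists and of both pairs were named after their values were seen. The comparison, its members and the 61 lists were chosen with earlier results of these data known. Lists overlap, and a few genes are not reported here.

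Alternatives were median, detected-probe, quantile and cyclic loess scaling, normexp with an offset of 50, the value table, other filters, all probes and other sizes. Normexp used the median spot signal. Size calls were tested on simulated data. Python 3.11.15, pandas 2.3.3 and, for normalizations, limma 3.58.1 in R 4.3.3 were used.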

Additional observations from a re-analysis of the deposited data

Results flagged for a closer look

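On normal and high-fat diet 29 genes changed 2-fold in opposite directions between knockout and wild type, and 8 of them are among the genes named here. In each, the knockout moved one way on normal diet and the other way on high-fat diet, with 1 array per group, so the difference was not tested. The values are log2 differences in the order normal and high-fat diet. Hamp2, the hepcidin copy, had 3.68 and -1.10, and Marco, the macrophage scavenger receptor, -1.18 and 2.63. Lpl, the lipoprotein lipase, had -1.27 and 1.25, and Ciart, the circadian repressor, 1.37 and -1.11. Serpinb1a, an inhibitor of neutrophil proteases, had 1.32 and -1.32, with signals of 1724 and 4316 on normal and 1835 and 735 on high-fat diet, wild type before knockout. Xlr4a, an X-linked gene of lymphoid cells, had -2.53 and 1.79. Krt20 had -3.39 and 1.17 and Lypd8, a Ly6 family gene of gut epithelium, 1.07 and -2.06, where both Krt20 values and the normal-diet value of Lypd8 are bounds.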

How the results depend on the processing

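Under normexp 102 genes rose and 143 fell. Without bounds 114 rose and 202 fell, and without a filter on dim probes 603 and 1008. At 1.5-fold 572 rose and 977 fell, and at 3-fold 89 and 146. Of genes changed the same way in both pairs, 27 rose and 48 fell, against 13 and 26 under normexp, 113 and 118 without a filter, 137 and 156 at 1.5-fold, and 6 and 20 at 3-fold. With the other scalings, the value table and the mean of all probes, increases ranged from 193 to 264 and decreases from 285 to 369. Of 138 named changed genes, 106 stayed at 2-fold under normexp, 109 without bounds and between 128 and 138 under the other settings at that size, and 0 reversed. Under median scaling the medians of the stellate, hepatocyte, metallothionein, complement, glucocorticoid, Cyp2c, bile acid, ATF4, p53, HIF, Ly6, urinary protein, apolipoprotein and peroxide-producing oxidase lists turned from negative to positive. Signal over background limits the dim genes, where most bounds lie. No paired analysis was possible because each group is 1 array.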
